A study of Mus musculus with 25 samples.

Results

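The LIM-only genes Lmo1, Lmo2, Lmo3 and Lmo4, the LIM-domain-binding genes Ldb1 and Ldb2 and the single-stranded-DNA-binding protein genes Ssbp2, Ssbp3 and Ssbp4 were examined in the embryonic mamillary region of mice with an altered Lhx5 allele. These 9 genes, of 18820 named genes on the array, were chosen by family membership, with earlier results of these data known. Each was represented by 1 transcript cluster, the probe set that the array assigns to a gene. RNA was from dissected mamillary neuroepithelium of C57BL/6 embryos at E10.5 and was hybridised to 1 Affymetrix Mouse Gene 1.1 ST array for each of 13 mutant and 12 wild-type samples. The mutant samples, labelled Lhx5 KO, carried on both chromosomes a floxed Lhx5 allele that had not been recombined and is described as a hypomorph. This allele keeps the Lhx5 exons, so the Lhx5 cluster is no check of the label. The wild-type samples (WT) carried no altered allele. The dissected tissue contained every cell type of the region, and the number of embryos per sample is not given in the sources used here.

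LIM-homeodomain proteins such as LHX5 bind DNA through a homeodomain and recruit LDB proteins through paired LIM domains. LDB proteins dimerise and thereby join transcription factors into larger complexes, and SSBP proteins bind LDB and protect it from degradation. LIM-only proteins have LIM domains without a homeodomain, so they can occupy LDB in place of a LIM-homeodomain protein or serve as adaptors in other complexes. LMO2 is best known for such an adaptor role with TAL1 and GATA factors in blood and endothelial cells.

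The arrays were alike in overall scale, with medians of 4.644 to 4.761 on the log2 scale and correlations between arrays of 0.9855 to 0.9966. For 35550 probe sets, the mean of mutant replicates 1 to 10 equalled the mean of mutant replicates 11 to 13 within 0.001, with a median absolute difference of 1.33e-06. The corresponding median between replicates 11 to 13 and WT was 0.0886. Genotype was therefore fitted with a term for mutant replicates 1 to 10, so that each difference rested on 3 mutant against 12 WT arrays, while all 25 arrays gave the spread. The level of replicates 1 to 10 relative to WT was not read as separate evidence. Tissue markers were measured, with WT means of 6.73 for Foxb1, 8.24 for Sim1 and 7.97 for Lhx5, all above the value of 3.41 that 95% of the odorant receptor clusters did not exceed. All 9 genes lay above that value.

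Lmo1 was the member with the largest difference between mutant and wild type. It had been followed up by the study after selection on these same arrays, so its direction here is not independent of that choice. The study also reported lower Lmo1 in the mutant by quantitative PCR. By in situ hybridisation in older embryos, it described its lower candidates as reduced or absent. From binding and reporter assays in a cell line, it proposes Lmo1 as a possible direct target of LHX5. In the 12 WT arrays, the log2 level of Lmo1 was 6.19 at the lowest, 6.74 at the median and 7.23 at the highest. The values of mutant replicates 11, 12 and 13 were 6.40, 5.87 and 5.93. All 3 mutant arrays lay below the WT median and 2 of them lay below every WT array, whereas replicate 11 lay within the WT range. Among mutant replicates 1 to 10, the values ran from 5.26 through a median of 6.09 to 6.54.

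The mean log2 level of Lmo1 was 6.07 ± 0.29 (SD, n = 3) in mutant replicates 11 to 13. In WT it was 6.81 ± 0.27 (SD, n = 12). The difference was -0.74 ± 0.21 (SE), with a 95% interval from -1.17 to -0.31, which is a 1.67-fold lower level in the mutant. With limma and the term for replicates 1 to 10, the adjusted p over all clusters was 0.179 (unadjusted p = 0.00147), and Lmo1 was not called at the 0.05 threshold. Without that term, the limma adjusted p was 0.000385. In an exact two-sided permutation test over all splits of the 15 arrays outside replicates 1 to 10 into 3 and 12, p was 0.0044, where the smallest possible p was 0.0022. In bulk tissue, fewer cells that express Lmo1 and less Lmo1 RNA per cell cannot be told apart. Its spread in WT was larger than that of 90.3% of the clusters tested.

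The bases upstream of Lmo1 and of Lmo3 are shown because these genes varied together, as described further on, and because Lmo1 alone, among the members with an entry, held the homeodomain core motif searched for. Both are 250 bases before an annotated start, 5′ to 3′ on the minus strand, from RefSeq on GRCm38.p6, at chr7:109175208-109175457 for Lmo1 and chr6:138581969-138582218 for Lmo3, with capitals for TAATTA.
Lmo1: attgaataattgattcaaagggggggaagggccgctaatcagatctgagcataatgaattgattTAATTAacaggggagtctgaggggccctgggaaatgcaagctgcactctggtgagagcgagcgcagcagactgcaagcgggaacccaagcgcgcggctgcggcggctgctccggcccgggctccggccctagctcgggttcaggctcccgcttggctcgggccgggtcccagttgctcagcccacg
Lmo3: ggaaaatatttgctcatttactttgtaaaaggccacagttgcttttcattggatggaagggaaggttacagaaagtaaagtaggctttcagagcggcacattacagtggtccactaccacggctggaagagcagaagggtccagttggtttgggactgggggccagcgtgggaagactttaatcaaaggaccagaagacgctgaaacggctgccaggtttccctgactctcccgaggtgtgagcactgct
TAATTA reads the same on both strands, and its first base lay at position -186 from this Lmo1 start. The window of the other annotated Lmo1 start overlapped this one in part and held the same copy of the motif, at position -244. Promoter entries were given for 7 members (13 starts), and the motif was in both Lmo1 entries and in 0 of the other 11. Over all genes with an entry, 1527 of 27025 (5.65%) held it in this window. GC content was 61.2% in the Lmo1 window, 50.0% in the Lmo3 window and 52.4% at the median of all windows. A match of letters is a description and not evidence of binding.

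Lmo3, a LIM-only gene of the developing nervous system, had a mean of 7.85 ± 0.16 (SD, n = 3) in mutant replicates 11 to 13. In WT it was 8.09 ± 0.29 (SD, n = 12). Its WT values were 7.54 at the lowest, 8.14 at the median and 8.43 at the highest. Mutant replicates 11, 12 and 13 had 7.96, 7.67 and 7.94. All 3 lay below the WT median, but none lay outside the WT range. The difference was -0.24 ± 0.16 (95% interval -0.57 to 0.09, limma adjusted p = 0.646). The interval ran from 0.676 to 1.07 times the WT level.

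Lmo2, the haematopoietic and endothelial LIM-only gene, had WT values of 7.27, 7.51 and 7.78 at the lowest, median and highest array. Mutant replicates 11, 12 and 13 had 7.77, 7.45 and 7.34, and the highest and lowest of these spanned most of the WT range. The difference was 0.01 ± 0.11 (95% interval -0.22 to 0.24, limma adjusted p = 0.991), a level between 0.856 and 1.18 times that of WT. Without mutant replicate 11 the difference was -0.12.

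Lmo4, a broadly expressed LIM-only gene, had WT values of 8.64, 8.74 and 9.02 at the lowest, median and highest array. Mutant replicates 11, 12 and 13 had 8.69, 8.75 and 8.69, all within the WT range. The difference was -0.08 ± 0.08 (95% interval -0.23 to 0.08, limma adjusted p = 0.778), a level between 0.852 and 1.05 times that of WT.

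**Figure D1:**
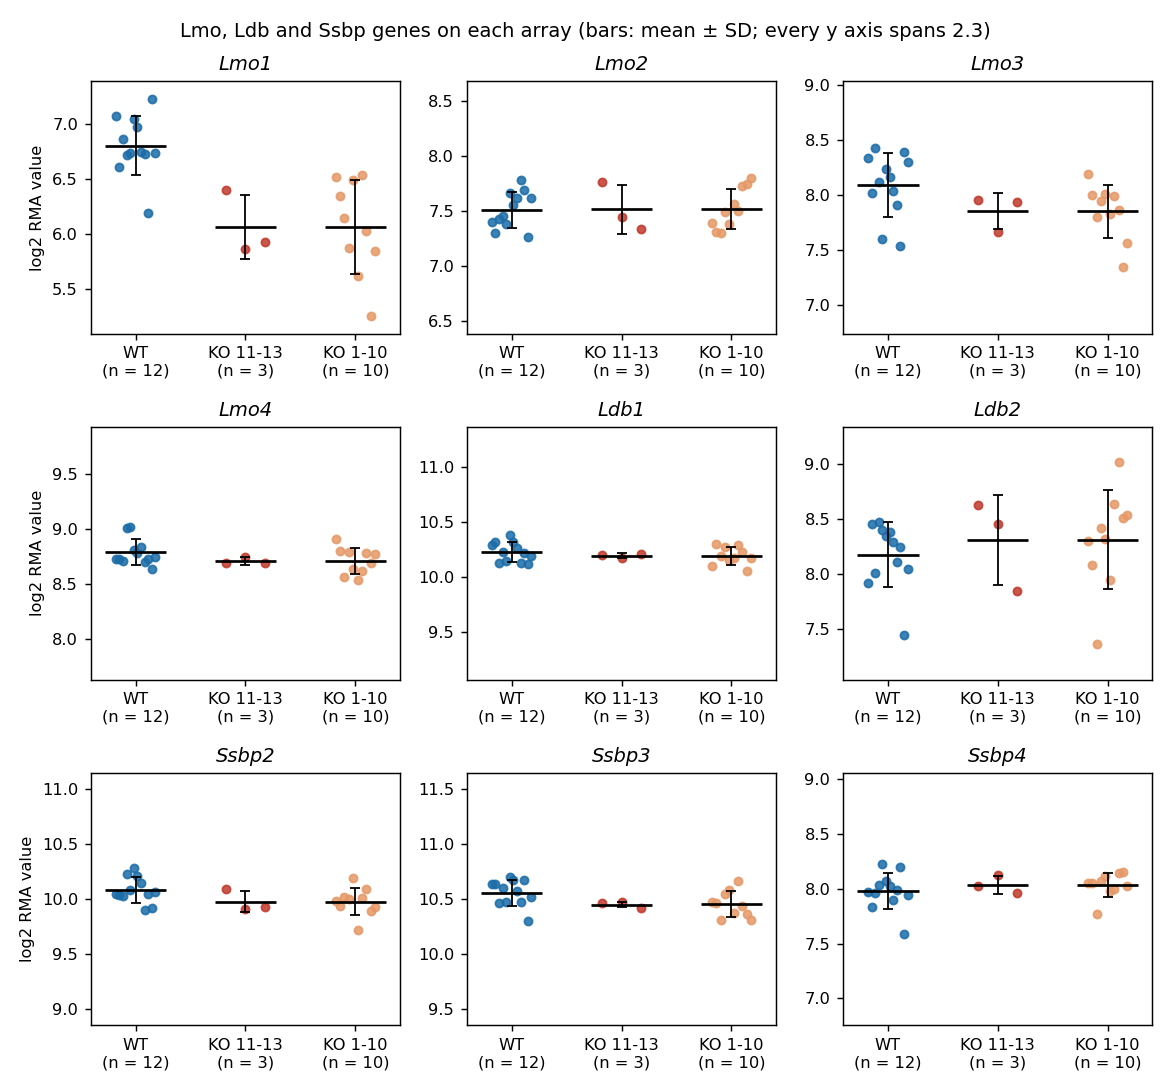
Log2 RMA values (y axis, log2 units) of the 9 genes on each array, with WT in blue, mutant replicates 11 to 13 in red and mutant replicates 1 to 10 in orange; bars are mean ± SD. Lmo1 is the gene in which 2 of 3 red points lie below every blue point, and the means of both mutant sets coincide in every panel.

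Ldb1, the principal LIM-domain-binding cofactor, was among the least variable genes, with a WT spread above that of only 12.9% of clusters. Its WT values were 10.12, 10.23 and 10.38 at the lowest, median and highest array. Mutant replicates 11, 12 and 13 had 10.20, 10.17 and 10.21, which all lay within the WT range and below its median. The difference was -0.04 ± 0.06 (95% interval -0.16 to 0.09, limma adjusted p = 0.879), so the level was between 0.896 and 1.06 times that of WT.

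Ldb2, its paralogue, was far more variable, with a WT spread above that of 92.6% of clusters. WT values were 7.45, 8.27 and 8.47 at the lowest, median and highest array. Mutant replicates 11, 12 and 13 had 8.63, 8.46 and 7.85. Replicate 11 lay above every WT array and replicate 13 lay below the WT median. The difference was 0.14 ± 0.22 (95% interval -0.33 to 0.60, limma adjusted p = 0.882), and the interval from 0.797 to 1.52 times the WT level left a 1.5-fold increase unresolved. The difference was -0.022 without mutant replicate 11 and 0.37 without mutant replicate 13, so its sign depended on single arrays.

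The 3 Ssbp genes, whose products stabilise LDB proteins, had differences smaller than 1.5-fold over their whole intervals. For Ssbp3, WT values were 10.30, 10.58 and 10.70 at the lowest, median and highest array, and mutant replicates 11, 12 and 13 had 10.46, 10.47 and 10.42. All 3 lay within the WT range and below its median, and the difference was -0.11 ± 0.08 (95% interval -0.26 to 0.05, limma adjusted p = 0.662). For Ssbp2, WT values were 9.90, 10.06 and 10.28, and mutant replicates 11, 12 and 13 had 10.09, 9.91 and 9.93. Here 2 of the 3 mutant arrays lay near the lowest WT value and the other lay above the WT median. The Ssbp2 difference was -0.11 ± 0.08 (95% interval -0.27 to 0.05, limma adjusted p = 0.684). For Ssbp4, WT values were 7.59, 7.98 and 8.22, and mutant replicates 11, 12 and 13 had 8.02, 8.12 and 7.96, on both sides of the WT median. The Ssbp4 difference was 0.06 ± 0.09 (95% interval -0.13 to 0.24, limma adjusted p = 0.870).

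In the fit with the term for replicates 1 to 10, 0 of the 9 genes were called, against 0.0242% of all clusters (7 of 28940). At an unadjusted p below 0.05, 1 of 9 passed (Lmo1), beside 10.3% of all clusters. With genotype alone, 1 of 9 was called (Lmo1, lower), beside 16.7% of all clusters called in either direction and 6.99% called lower. These shares are near the background and are not a result about the gene set. The median difference was -0.08 over the 9 genes (6 lower and 3 higher) and 0.01 over all clusters. Lhx5 itself differed by -0.04 ± 0.17 (95% interval -0.40 to 0.31, limma adjusted p = 0.960).

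**Figure D2:**
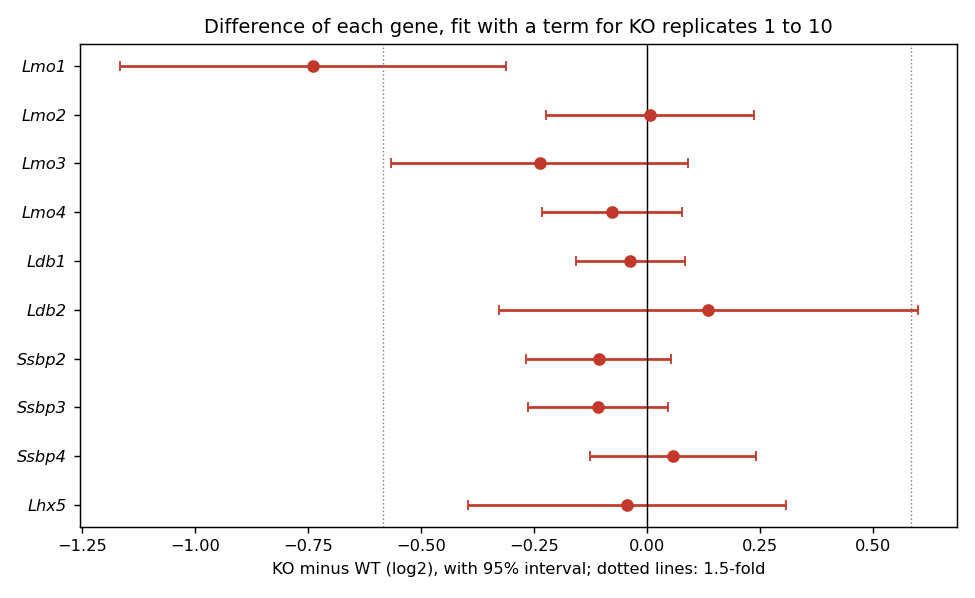
Difference between mutant and WT (x axis, log2 units) for the 9 genes and Lhx5, as points with 95% intervals from the fit with a term for mutant replicates 1 to 10; dotted lines mark 1.5-fold. The Lmo1 interval, from -1.17 to -0.31, is the only one that does not include 0.

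Because LMO and LDB proteins act in one complex, Lmo1 was also set against each other member within the same array, as a difference of log2 values whose change between genotypes was tested. This comparison was chosen after the values were seen. Lmo1 relative to Ldb1 was lower in mutant replicates 11 to 13 than in WT by -0.70 (exact two-sided permutation p = 0.0044). Relative to Ssbp3 the change was -0.63 and relative to Lmo4 it was -0.66 (exact permutation p = 0.0044 for each). It was smallest against its paralogue Lmo3, at -0.50 (exact permutation p = 0.00659), and largest against Ldb2, at -0.88 (exact permutation p = 0.0154). Over the 9 comparisons, with the other 8 members and with Lhx5, every change was negative, but all share the Lmo1 values and are not separate evidence. An unequal change within an array does not show that the other gene was unchanged.

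The genes were then compared for joint variation between arrays of the same set, in the 12 WT arrays and in mutant replicates 1 to 10 apart, over 45 pairs formed by the 9 genes and Lhx5. Lmo1 and Lmo3 had a positive correlation in both sets. In WT, Pearson's r was 0.77 (permutation p = 0.00246, adjusted p = 0.0553) and Spearman's rho was 0.78 (permutation p = 0.0036, adjusted p = 0.054). In mutant replicates 1 to 10, r was 0.84 (permutation p = 0.00165, adjusted p = 0.0742) and rho was 0.82 (permutation p = 0.00561, adjusted p = 0.196). Neither passed the correction over 45 pairs. Without the 2 arrays farthest from the Lmo1 median, r was 0.53 in WT and 0.75 in the mutant set. WT replicate 10, the lowest WT array for both genes, is the blue point at the lower left of the plot of paired deviations.

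Ldb1 and Ssbp3, whose products bind each other, passed the correction in WT by both measures, with r = 0.88 (permutation p = 0.00013, adjusted p = 0.00585) and rho = 0.85 (permutation p = 0.00081, adjusted p = 0.0182). The value of r was 0.88 without the 2 arrays farthest from the Ldb1 median and 0.90 without WT replicate 11, the lowest WT array for both genes. In mutant replicates 1 to 10, r was 0.46 (permutation p = 0.178, adjusted p = 0.624). The difference between the sets was not tested. Lmo4 and Ssbp2 passed in WT by rank, with rho = 0.88 (permutation p = 0.00031, adjusted p = 0.0139), but not by Pearson's r, which was 0.59 (permutation p = 0.0414, adjusted p = 0.169) and 0.84 without the 2 arrays farthest from the Lmo4 median. In mutant replicates 1 to 10 their r was 0.19 (permutation p = 0.622, adjusted p = 0.849). Lmo1 and Lhx5 had r = 0.68 in WT (permutation p = 0.0124, adjusted p = 0.124), which was 0.34 without the 2 arrays farthest from the Lmo1 median and thus rested on them. In mutant replicates 1 to 10 it was -0.06 (permutation p = 0.861, adjusted p = 0.929). By Pearson's r, 1 of 45 pairs passed the correction in WT (11 at an unadjusted permutation p below 0.05) and 0 in the mutant set (6 unadjusted). By Spearman's rho, 2 passed in WT (7 unadjusted) and 0 in the mutant set (4 unadjusted).

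**Figure D3:**
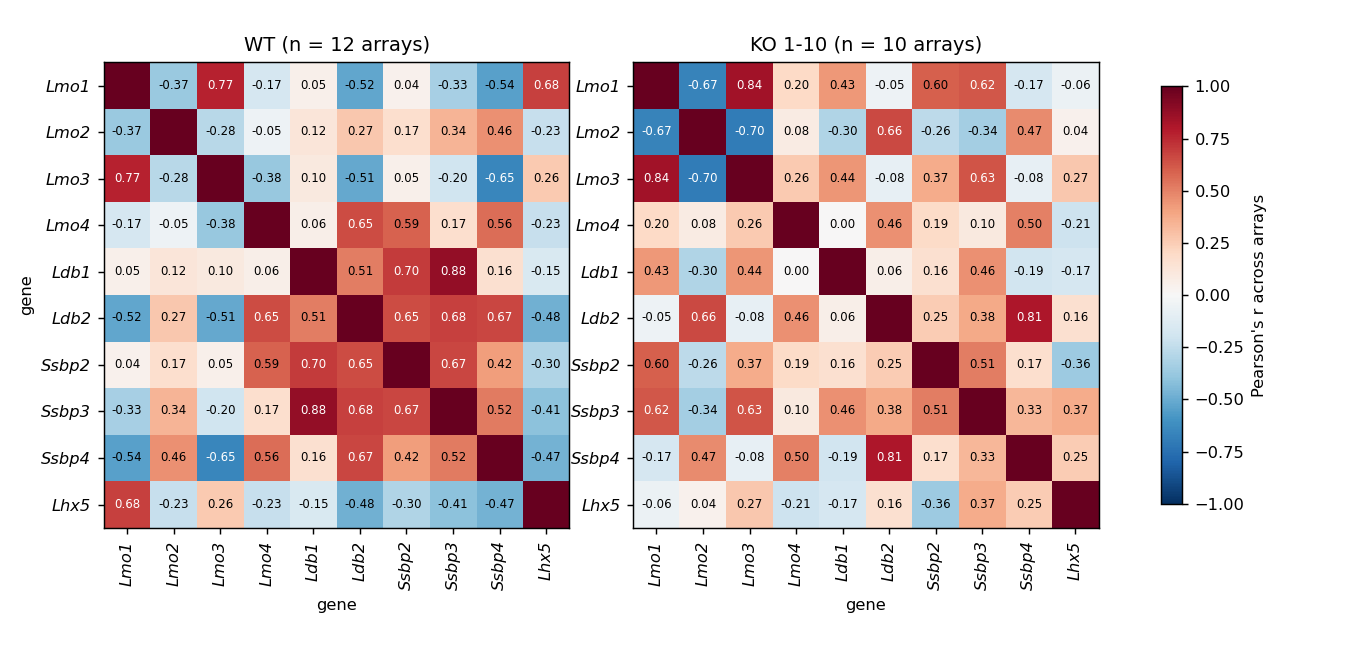
Pearson's r between the log2 values of each pair of genes across the 12 WT arrays (left) and across mutant replicates 1 to 10 (right), coloured from -1 (blue) to 1 (red). Lmo1 with Lmo3 is positive in both panels, at 0.77 and 0.84, and Ldb1 with Ssbp3 is 0.88 in WT and 0.46 in the mutant set.

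Each member was also compared with the mean log2 level of 6 lists of cell type markers, which gave 54 relations in each set. Lmo2 varied with the endothelial list in mutant replicates 1 to 10, with r = 0.95 (permutation p = 0.00012, adjusted p = 0.00324), rho = 0.98 (permutation p = 4e-05, adjusted p = 0.00216) and r = 0.95 without the 2 farthest arrays or 0.94 without mutant replicate 3. In WT, the same relation had r = 0.49 (permutation p = 0.0843, adjusted p = 0.198), and it was 0.15 without WT replicate 11, so it rested on that array. Lmo2 is itself expressed in endothelium.

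Ldb2 varied with the mesenchymal list in mutant replicates 1 to 10, with r = 0.92 (permutation p = 6e-05, adjusted p = 0.00324), rho = 0.90 (permutation p = 0.00086, adjusted p = 0.0232) and r = 0.92 without the 2 farthest arrays or 0.87 without mutant replicate 3. In WT, r was 0.82 (permutation p = 0.0025, adjusted p = 0.0613), 0.37 without the 2 farthest arrays and 0.61 without WT replicate 11. Ssbp3 varied with the young-neuron list in WT, with r = 0.89 (permutation p = 0.00016, adjusted p = 0.00864) and rho = 0.83 (permutation p = 0.0015, adjusted p = 0.0532), and r was 0.79 without WT replicate 11. In mutant replicates 1 to 10 that r was 0.75 (permutation p = 0.0139, adjusted p = 0.107). For Ldb1 with the young-neuron list, r was 0.73 in WT (permutation p = 0.00568, adjusted p = 0.0613). It was 0.30 in mutant replicates 1 to 10 (permutation p = 0.405, adjusted p = 0.598). The part of these young-neuron relations in the correlation of Ldb1 with Ssbp3 was not tested. With the neural progenitor list, r was 0.66 for Lmo1 and 0.73 for Lmo3 in WT (0.22 and 0.50 without the 2 farthest arrays). These WT values were 0.81 and 0.80 without WT replicate 11. In mutant replicates 1 to 10, r was 0.64 and 0.87 (0.17 and 0.38 without the 2 farthest arrays). These mutant values were 0.64 and 0.88 without mutant replicate 3. With the young-neuron list, r was -0.20 and -0.17 in WT and 0.80 and 0.69 in mutant replicates 1 to 10. Without WT replicate 11, the WT values were 0.27 and 0.10, so their negative sign rested on that array. Without mutant replicate 3, the mutant values were 0.81 and 0.73. None of these Lmo1 and Lmo3 relations passed the correction. Their part in the correlation of Lmo1 with Lmo3 was not tested. Whether these relations differed between the sets was not tested.

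**Figure D4:**
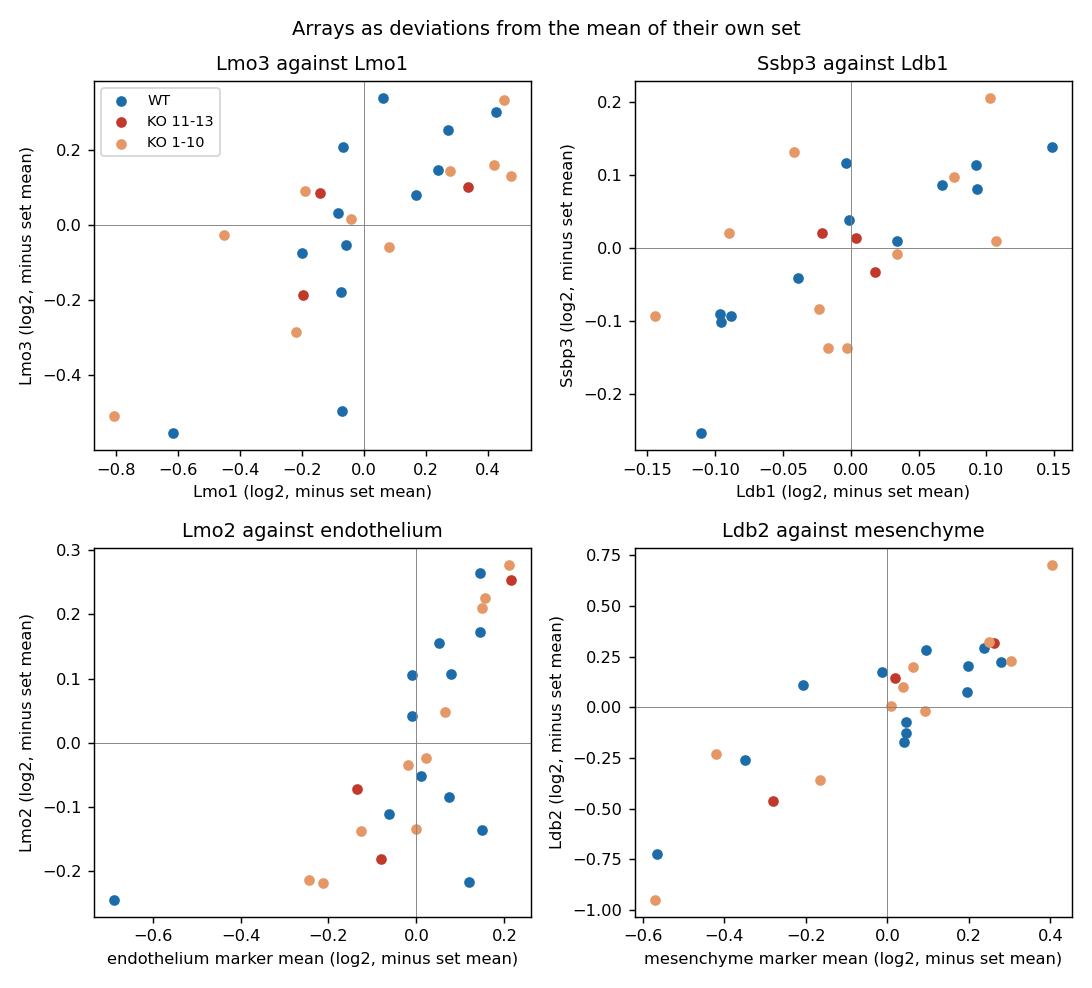
Each point is an array, plotted as its deviation from the mean of its own set (both axes, log2 units), with WT in blue, mutant replicates 11 to 13 in red and mutant replicates 1 to 10 in orange. The panels show Lmo3 against Lmo1, Ssbp3 against Ldb1, Lmo2 against the endothelial marker mean and Ldb2 against the mesenchymal marker mean. WT replicate 11 lies far to the left in both lower panels, and in the Ldb2 panel mutant replicate 3 lies equally far to the left.

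The marker lists themselves gave the following levels beside these members. Of 12 endothelial genes, 11 had a positive difference, with a median of 0.11, and the list mean was 7.28 to 7.63 in mutant replicates 11 to 13 and 6.61 to 7.44 in WT. All 8 mesenchymal genes had a positive difference (median 0.15, mutant 7.78 to 8.32, WT 7.32 to 8.16), as did all 8 erythroid genes measured (median 0.32, mutant 8.49 to 9.04, WT 8.04 to 9.33). The median over the 6 macrophage genes was 0.07 (mutant 4.39 to 4.72, WT 3.93 to 4.85). All 5 young-neuron genes measured had a negative difference (median -0.15, mutant 7.45 to 7.72, WT 6.70 to 8.42), as did all 6 neural progenitor genes (median -0.18, mutant 9.22 to 9.42, WT 9.06 to 10.05). The ranges of mutant and WT overlapped in each of these 6 lists, and 0 genes of these lists were called with the term for replicates 1 to 10. With genotype alone, 3 endothelial genes and 1 mesenchymal gene were called higher and 2 neural progenitor genes lower, beside 16.7% of all clusters called and 6.99% called lower. Of 13 mamillary and hypothalamic genes measured, 5 had an unadjusted p below 0.05, all lower, beside 10.3% of all clusters in either direction. The 5 were Foxb2, Nkx2-4, Barhl1, Rax and Otp, and all are on the study's list of genes lower on these same arrays. Their count and direction, and the list mean they enter, are therefore not independent of that selection. Of the same 13 genes, 0 were called with the term and 5 were called lower with genotype alone, and their median difference was -0.16. Their list mean was 6.61 to 6.69 in mutant replicates 11 to 13, 6.15 to 6.94 in mutant replicates 1 to 10 and 6.75 to 7.27 in WT, so the first set of 3 arrays lay below WT and the second overlapped it. The part of these levels in the Lmo1 difference was not tested.

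The genes most like each member across all 25 arrays were found from residuals around the set means, among 13304 named genes, as a description without a test. For Lmo1, Pearson's r was 0.82 with Epha3 (an ephrin receptor), 0.77 with Gsx1 (a homeobox gene of the hypothalamus and ventral forebrain), 0.77 with Zfp663, 0.76 with Lmo3 and 0.74 with Tigd3. The 5 genes closest to Lmo3 were H2bc21 (0.79), Sox3 (0.78), Pax6 (0.77), Myb (0.77) and Nlgn1 (0.77). The 5 genes closest to Lmo2 were Gmfg (0.79), Sh2b3 (0.78), Fhl3 (0.77), Stat5a (0.77) and Pgm2 (0.76). Lmo4 had lower values, with 0.75 for Aldh6a1 as its closest.

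Ldb1 was most like Tmem50b (0.90), Actr1a (0.88) and Alg2 (0.87). Ldb2 was most like Fblim1 (0.94), Sertad4 (0.94) and Igf2 (0.93), with Foxd2 and Tgfbi at 0.92. Ssbp3 had Tmem163, Nrn1 (0.91 for both) and Psap (0.90) as its closest, Nrn1 being a neuritin of growing neurites. Ssbp2 had Tsc22d1 (0.81) and Ssbp4 had Pth1r (0.85). None of the 9 genes except Lmo3 was among the 5 closest genes of another member.

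The partners of these proteins were then counted. Of the 12 LIM-homeodomain genes listed, 11 were measured and 0 were called with the term for replicates 1 to 10, with a median difference of 0.04 beside 0.01 over all clusters. With genotype alone, 1 was called higher and 3 lower, beside 16.7% of all clusters called and 6.99% called lower. Lmx1b had a difference of 0.34 ± 0.13 (limma adjusted p = 0.350). Lhx2, which acts in the forebrain and hypothalamus, had -0.57 ± 0.25 (limma adjusted p = 0.422), and Lhx3, of motor neurons and pituitary, had -0.60 ± 0.30 (limma adjusted p = 0.493). The mutant mean of Lhx3 was 3.46, near the odorant receptor value of 3.41, and its WT mean was 4.06.

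Of 13 other genes whose products join LMO or LDB complexes, all were measured, 0 were called with the term and the median difference was 0.05. With genotype alone, 1 was called higher and 1 lower, which is near the 16.7% of all clusters called. Gata2, a GATA factor of blood and endothelial complexes, had 0.37 ± 0.18 (limma adjusted p = 0.497). The corepressor gene Cbfa2t2 had -0.20 ± 0.11 (limma adjusted p = 0.510), and Lyl1, a relative of Tal1, had 0.23 ± 0.20 (limma adjusted p = 0.749).

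**Figure D5:**
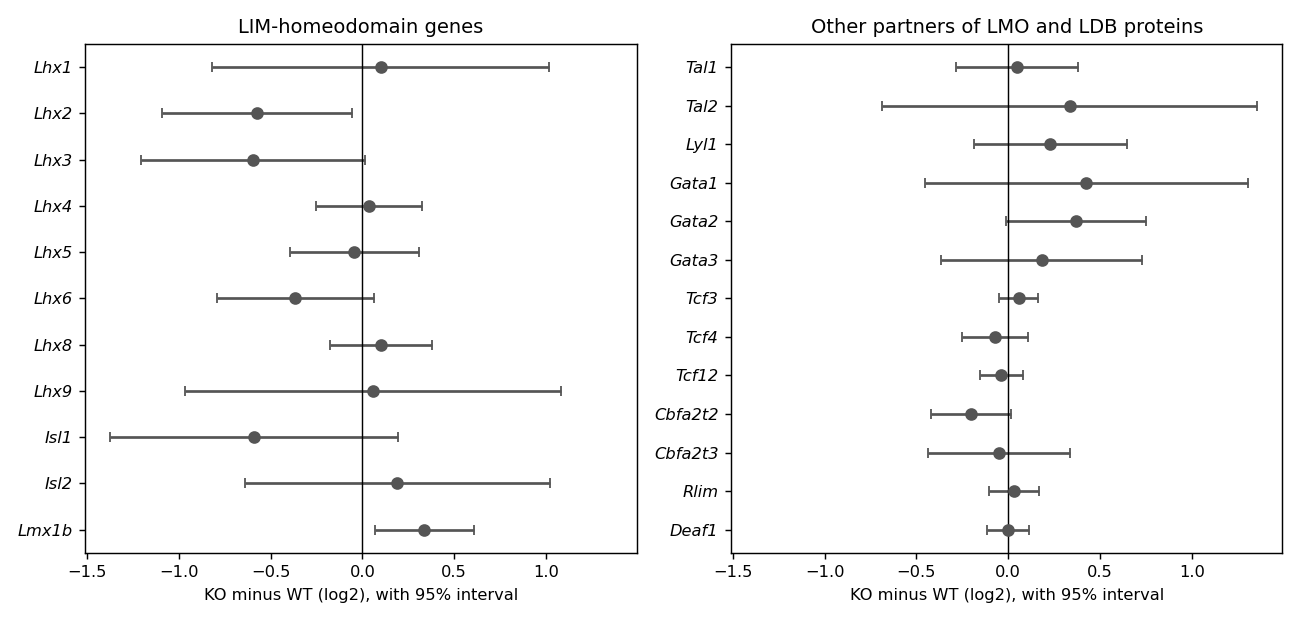
Difference between mutant and WT (x axis, log2 units) for the LIM-homeodomain genes (left) and for other partners of LMO and LDB proteins (right), as points with 95% intervals from the fit with a term for mutant replicates 1 to 10. The intervals of Lhx2 (-0.57) and Lmx1b (0.34) do not include 0, and neither gene was called after adjustment.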

How the data were processed

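The authors deposited log2 values per transcript cluster, made by robust multiarray averaging (RMA). Affymetrix Expression Console 1.0, affy and R 2.7.0 are named in the submitters' processing notes. Adjustment between batches is not given in the sources used here. Of the deposited log2 values, 14 cells above 14 were set missing, 0 of them in the 9 genes, and 0 columns of per-sample values were left unused. In 10 array columns such misprinted cells were present. After 6616 unannotated probe sets with low identifiers were left out, 28940 clusters were tested.

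The model, fitted to every cluster with limma 3.58.1 in R 4.3.3, held genotype and a term for mutant replicates 1 to 10. Variances were moderated, p-values were two-sided and adjusted by Benjamini-Hochberg over all clusters, and a cluster was called at an adjusted p below 0.05. Single genes were also compared by exact permutation over all splits into 3 and 12 arrays, and correlations by 100000 permutations in Python 3.11.15 with numpy 2.4.6. The brightest single-symbol cluster stood for each gene. The samples are biological replicates per the labels, and the number of arrays limits the precision.

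The members and the 9 gene lists were chosen with earlier results of these data known. Named were the 9 genes and Lhx5, up to 3 genes with the smallest p of each partner list, and up to 5 genes most like each member. Also named were the mamillary and hypothalamic genes with an unadjusted limma p below 0.05, and Foxb1 and Sim1 as tissue markers. The Lmo1 differences within arrays, the replicate block with genotype alone and the correlations without WT replicate 11 or mutant replicate 3 were chosen after the data were seen. Whether equal replicate numbers pair the samples was checked after removal of group means. The correlations of same-numbered arrays ran from -0.33 to 0.43 and were above 0.1 for 4 of 12 numbers, so they were not taken to pair the samples. The fits were tested on simulated data. Alternatives were genotype alone, the shared arrays alone, quantile normalization, median centring, omission of dim clusters, limma-trend, array weights, embryo sex (read from Xist and Y-linked transcripts) as a covariate, a replicate block and each array left out in turn. Promoter sequences were from RefSeq on GRCm38.p6, and 7 of 9 genes matched.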

Additional observations from a re-analysis of the deposited data

Results flagged for a closer look

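The level of Ssbp4 in mutant replicate 3 was 7.77 on the log2 scale, set apart from the other 9 arrays of mutant replicates 1 to 10 by a gap of 0.553 of the range of the set, above Dixon's 95% critical value for 10 arrays. The 9 genes were examined in this way, and chance sets apart an array in about 1 of 20 sets. Mutant replicate 3 was also the lowest array of that set for Lmo2, Ldb2 and Ssbp3. Without it, Pearson's r in that set was 0.85 for Lmo1 with Lmo3, 0.94 for Lmo2 with the endothelial list, 0.87 for Ldb2 with the mesenchymal list and 0.50 for Ldb2 with Ssbp4, which was 0.81 with it.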

How the results depend on the processing

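Of 99 values of the 9 genes under settings other than a left-out array, 93 kept their direction and their side of the threshold, 2 were past it and 4 reversed. Direction was fixed in advance with genotype alone, the shared arrays, omission of dim clusters, limma-trend and the exact permutation test. The same difference enters each of them. The embryo sex covariate could not change a difference either. Males were 4 of the 12 WT arrays and 1 of the 3 arrays of mutant replicates 11 to 13, which is the same share. In those settings only the side of the threshold could differ. Lmo1 was past the adjusted threshold with genotype alone (-0.74, limma adjusted p = 0.000385) and with the replicate block and genotype alone (-0.73, limma adjusted p = 0.0014). The exact permutation p of 0.0044 and the limma p of 0.00147 for Lmo1 are both unadjusted. With the replicate block beside the term for replicates 1 to 10, the difference was -0.85 for Lmo1 (limma adjusted p = 0.433) and reversed to 0.024 for Lmo4, 0.030 for Ldb1, 0.0071 for Ssbp2 and 0.057 for Ssbp3. It was -0.53 for Lmo3, 0.17 for Lmo2, 0.79 for Ldb2 and 0.31 for Ssbp4 (limma adjusted p 0.479, 0.802, 0.461 and 0.526). By construction this fit rests on replicates 11 and 12 of each genotype. In the reported fit, leaving out any of mutant replicates 1 to 10 could change no difference, only its spread. With single arrays left out, differences ran from -0.91 to -0.64 for Lmo1 (limma adjusted p 0.12 to 0.651), -0.12 to 0.10 for Lmo2, -0.29 to -0.14 for Lmo3, -0.10 to -0.06 for Lmo4, -0.05 to -0.02 for Ldb1, -0.022 to 0.37 for Ldb2, -0.16 to -0.07 for Ssbp2, -0.13 to -0.09 for Ssbp3 and 0.01 to 0.09 for Ssbp4. Clusters called numbered 7, and 4825 with genotype alone, 0 with the replicate block and the term, 3637 with the replicate block and genotype alone, 1 after quantile normalization, 12 after median centring, 4 without dim clusters, 30 with array weights, 9 with limma-trend, 8 with embryo sex, 6 in the shared arrays and 0 (without mutant replicate 13) to 26 (without WT replicate 10) with single arrays left out. A mean over clusters of a gene could not differ, since each had 1 cluster. With 3 mutant arrays behind each difference, the 95% intervals set what could be resolved.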

Other observations

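WT replicate 11 was the lowest of the 12 WT arrays for 6 of the 9 genes (Lmo2, Lmo4, Ldb1, Ldb2, Ssbp3 and Ssbp4) and the highest for Lmo1. WT replicate 10 was the lowest for 2 of them, Lmo1 and Lmo3. Among mutant replicates 1 to 10, replicate 3 was the lowest array for 4 of the 9 genes and replicate 9 for 3.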
